A study of Mus musculus with 12 samples.

Results

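The genes described here are 10 genes of autophagy and mitophagy, Map1lc3a, Map1lc3b, Gabarapl1, Sqstm1, Becn1, Ulk1, Bnip3l, Lamp2, Tfeb and Atg5. They were chosen by symbol, out of 33641 genes listed in each of 12 mouse heart samples, and all 10 were found in every sample and passed the filter on low values. Expression was measured by RNA sequencing in the left ventricle (LV) and the right ventricle (RV), with 3 samples of each ventricle from each genotype. The question was whether these genes differed between genotypes within a ventricle, between ventricles within a genotype, or in one ventricle's response to genotype more than in the other's.

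In every group the mouse phospholamban coding sequence had been replaced by a human one through gene targeting, so the WT-PLN control mice were humanized too. Phospholamban is the small membrane protein that restrains the calcium pump SERCA2a of the sarcoplasmic reticulum. WT-PLN mice carried the human wild-type sequence, and R14del-PLN mice carried a human sequence that lacks the codon for arginine 14, in the heterozygous state according to the methods of the study. All mice were 12 to 14 weeks of age, labelled as strain C57BL/6J, and described as males of a hybrid line made by breeding targeted chimeras to Sox2-Cre mice. The titles of the mutant samples read KO while their genotype label reads R14del-PLN, and they are called R14del-PLN throughout. Expression is given as TPM (transcripts per 1000000 transcripts), a length-scaled share of all transcripts in a sample, so levels of different genes can be set side by side but no read depth is known. A log2 difference below is a difference of log2(TPM + 1) from limma, a linear model with a spread shared between genes. A call needed an adjusted p (Benjamini-Hochberg, over 12526 tested genes) no higher than 0.05 and a fold of 1.5 or more.

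Autophagy delivers parts of a cell to the lysosome for breakdown. The kinase ULK1 and the lipid kinase complex that contains Beclin 1 start a membrane sheet, ATG5 with its partners attaches ubiquitin-like ATG8 proteins (the LC3 and GABARAP families) to the lipid of that sheet, and receptors such as p62 tie the cargo to them. In mitophagy the cargo is a mitochondrion, marked in heart muscle by receptors of the outer membrane such as NIX. Heart muscle cells are long-lived and rich in mitochondria, and inherited loss of LAMP2, a lysosomal membrane protein, causes a cardiomyopathy known as Danon disease.

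Some libraries stood apart, and this touches the results below. Transcripts of 4 genes of the Y chromosome (Ddx3y, Eif2s3y, Kdm5d and Uty) summed to 0.284 and 0.25 TPM in the LV and RV samples numbered 1 of WT-PLN, against 43.5 to 63.7 TPM in the other 10 samples, although the mice were described as males. Mitochondrially encoded genes made up 44.0 to 47.3% of all TPM in WT-PLN LV and 48.7 to 52.7% in WT-PLN RV. In R14del-PLN they made up 37.3 to 51.2% in LV and 51.1 to 54.5% in RV. The lowest share was in LV sample 3 of R14del-PLN and the highest in RV sample 3 of R14del-PLN. That RV sample also had the lowest value of the 12 for Ulk1, Becn1, Map1lc3a, Gabarapl1, Sqstm1 and Bnip3l. Its deposited name carries another run number, and an effect of the run was not tested. Summed over 5 markers of heart muscle (Myh6, Tnnt2, Actc1, Tnni3 and Ryr2) the samples held 17821 to 26623 TPM. The 5 markers of atrial muscle summed to 45.6 to 1296 TPM, with the highest value in LV sample 3 of WT-PLN. Next were RV sample 2 of WT-PLN at 871 TPM and RV sample 2 of R14del-PLN at 521 TPM. A sum over 8 early response genes (Fos, Fosb, Jun, Junb, Egr1, Atf3, Ier2 and Nr4a1) was 18.9 to 35.1 TPM in R14del-PLN, and in WT-PLN samples 1, 2 and 3 it was 35.9, 118 and 313 TPM in LV and 24.0, 89.6 and 227 TPM in RV. In Pln itself, 1559 to 1963 TPM were assigned over the 12 samples, and Atp2a2, the gene of SERCA2a, was at 2386 to 3464 TPM. A reading of Pln by gene does not tell the alleles apart. In bulk tissue, fewer cells of a type and less RNA per cell cannot be told apart.

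The stretches of promoter sequence below belong to Gabarapl1, Sqstm1, Map1lc3b and Atg5, and each holds a searched motif. Promoters of 250 bases before and 50 bases after a transcript start were found in RefSeq (GRCm38.p6) for 7 of the 10 genes, in 9 promoters, of which 3 are of Tfeb. None was available for Map1lc3a, Becn1 and Bnip3l. Each line holds 30 bases, 5′ to 3′ on the gene's strand, with the searched letters in capitals: the GC box GGGCGG (also read as CCGCCC, its other strand) near the starts of Gabarapl1, Sqstm1 and Map1lc3b, and the E-box CACGTG near the start of Atg5.
Gabarapl1 (chr6:129533133-129533162, + strand): ccttagcgccggGGGCGGagcgggggtggg
Sqstm1 (chr11:50210856-50210885, - strand): agcctaggggagGGGCGGggctcatagagg
Map1lc3b (chr8:121590389-121590418, + strand): cgctctcgggggCCGCCCtcggccccaccc
Atg5 (chr10:44268313-44268342, + strand): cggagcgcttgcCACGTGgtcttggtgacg
A GC box was present in at least 1 promoter of 7 of the 7 genes, against 38.2% of 27025 mouse genes with promoters of the same length. These genes were not limited to those expressed in heart, and no share among the tested genes was taken. The E-box CACGTG, the core of the element that TFEB and its relatives are known to bind, began 14 bases before the start of Atg5 and was present in 1 of the 7 genes, against 8.09% of all these genes. Neither the forkhead letters GTAAACA (4.05% of genes) nor the heat shock letters GAANNTTC (9.04%) were in any window of the 7 genes, on either strand. These matches describe letters, not bound sites.

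The order of the 10 genes was nearly the same in each group. Map1lc3a was the highest at a mean of 279 TPM over the 12 samples, followed by Sqstm1 at 180.0 TPM and Map1lc3b at 106 TPM, and these 3 did not overlap with each other or with the next gene within any group. Bnip3l (50.2 TPM), Gabarapl1 (49.0 TPM) and Lamp2 (48.4 TPM) changed places between groups and overlapped with each other in every group. Becn1 came next at 36.7 TPM, and its range overlapped with its upper neighbour in 3 of the 4 groups, WT-PLN RV being the exception. Ulk1 (17.3 TPM), Tfeb (10.2 TPM) and Atg5 (6.25 TPM) were the lowest 3 in each group, in that order and without overlap.

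**Figure D1:**
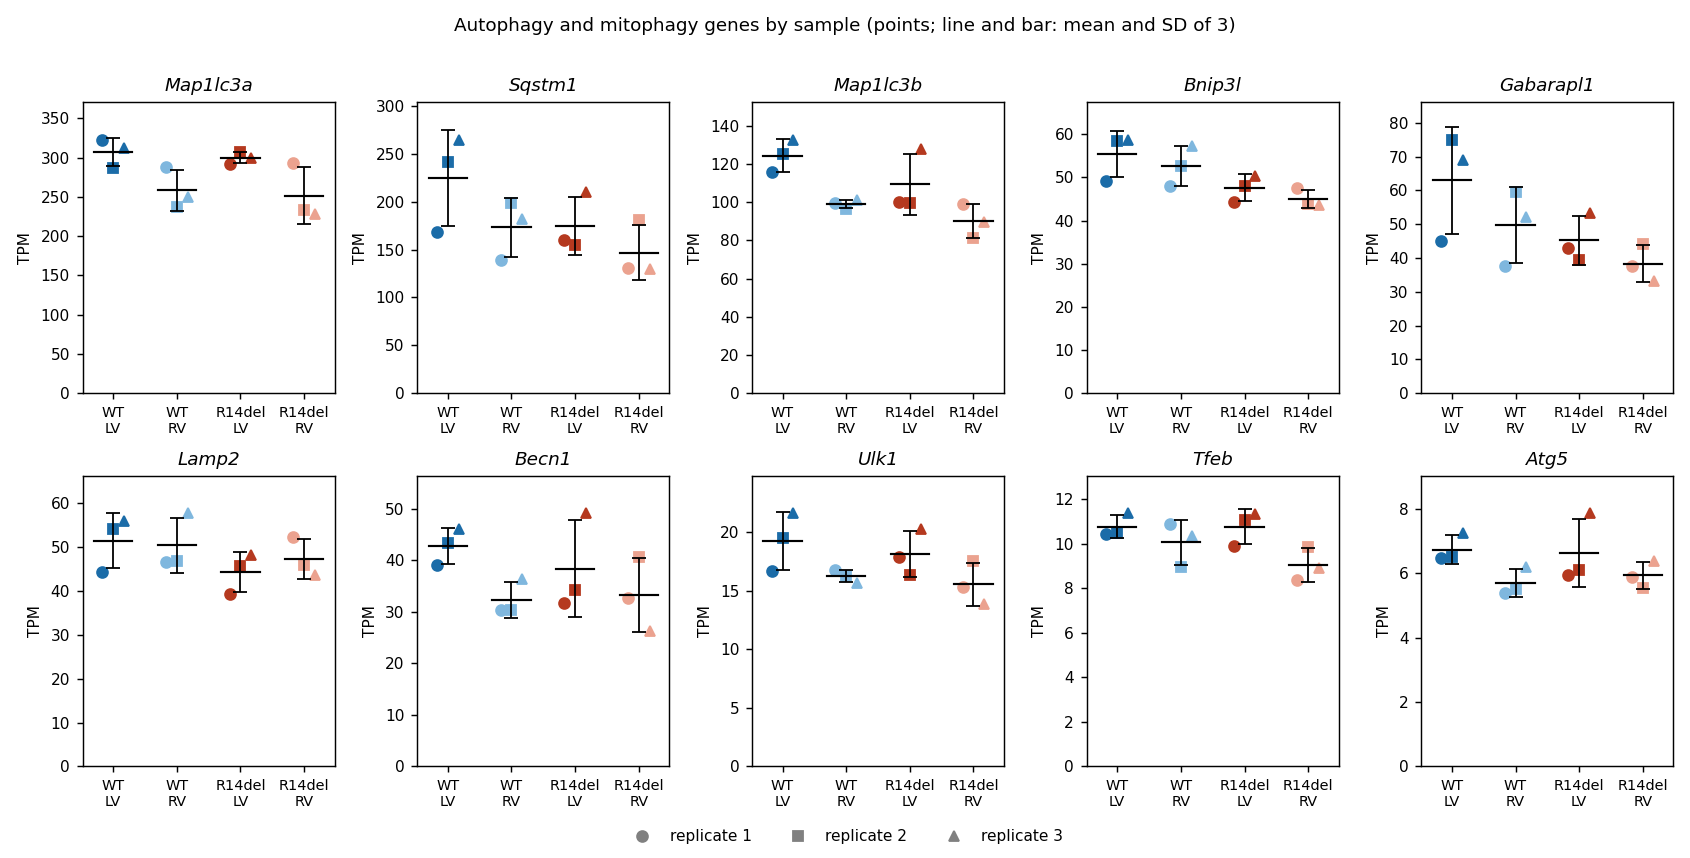
Level of each of the 10 genes in TPM (vertical axis, from 0) in the 12 samples, by group (horizontal axis). Symbols are samples by replicate number, lines and bars are the mean and SD of 3. Gabarapl1 and Sqstm1 show the widest scatter, with WT-PLN samples 2 and 3 above WT-PLN sample 1 in both ventricles, while Tfeb varied least.

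Ulk1, the kinase that starts autophagy, was measured at 16.7, 19.5 and 21.6 TPM in WT-PLN LV samples 1, 2 and 3, and at 17.9, 16.3 and 20.2 TPM in R14del-PLN LV. In RV it was at 16.8, 16.3 and 15.7 TPM in WT-PLN and at 15.3, 17.5 and 13.8 TPM in R14del-PLN. The genotypes overlapped in both ventricles. The log2 difference of R14del-PLN from WT-PLN was -0.08 (SE 0.13, adjusted p = 0.91) in LV and -0.07 (SE 0.13, adjusted p = 1) in RV.

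Becn1 encodes Beclin 1, the scaffold of the lipid kinase complex. Its values were 39.2, 43.3 and 46.1 TPM in WT-PLN LV and 30.3, 30.3 and 36.3 TPM in WT-PLN RV, so every LV value lay above every RV value. In R14del-PLN they were 31.7, 34.3 and 49.1 TPM in LV and 32.7, 40.6 and 26.2 TPM in RV, where the ventricles overlapped. RV was below LV by a log2 difference of -0.40 in WT-PLN (SE 0.18, unadjusted p = 0.0458, limma adjusted p = 0.338), which did not pass the threshold. The corresponding difference in R14del-PLN was -0.20 (SE 0.18, adjusted p = 0.952), and it was -0.01 without R14del-PLN LV sample 3 and -0.35 without R14del-PLN RV sample 2. Between genotypes Becn1 differed by -0.18 in LV and 0.02 in RV (SE 0.18 for both), both within the spread.

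Atg5, part of the enzyme that attaches ATG8 proteins to lipid, lay at 6.47, 6.51 and 7.25 TPM in WT-PLN LV and at 5.39, 5.50 and 6.19 TPM in WT-PLN RV. These ranges did not overlap. In R14del-PLN it was at 5.94, 6.11 and 7.86 TPM in LV and 5.88, 5.55 and 6.38 TPM in RV, which overlapped. RV minus LV was -0.21 on the log2 scale in WT-PLN (SE 0.13, adjusted p = 0.423) and -0.13 in R14del-PLN (SE 0.13, adjusted p = 0.954). The genotypes differed by -0.03 in LV and 0.05 in RV.

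Of the 5 genes of the ATG8 family, 3 are members. Map1lc3a encodes LC3A, and in samples 1, 2 and 3 it was measured at 322, 287 and 312 TPM in WT-PLN LV, 292, 307 and 300.0 TPM in R14del-PLN LV, 288, 238 and 249 TPM in WT-PLN RV, and 293, 233 and 228 TPM in R14del-PLN RV. The genotypes overlapped in both ventricles, with log2 differences of -0.03 in LV and -0.04 in RV (SE 0.12 for both). In WT-PLN the RV minus LV difference was -0.25 and in R14del-PLN -0.26 (SE 0.12, adjusted p = 0.358 and 0.762), and in each genotype the RV sample 1 reached the LV range while samples 2 and 3 lay below it.

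Map1lc3b encodes LC3B, the form most used as a marker of autophagosomes. Its 3 values were 116, 125 and 133 TPM in WT-PLN LV and 99.6, 96.7 and 101 TPM in WT-PLN RV. In R14del-PLN they were 100.3, 99.8 and 128 TPM in LV and 99.3, 81.3 and 89.8 TPM in RV. Map1lc3b was the 1 member whose LV and RV ranges did not overlap in either genotype. In R14del-PLN the lowest LV value of 99.8 TPM was close to the highest RV value of 99.3 TPM. RV was below LV at each of the 3 sample numbers in both genotypes, which also held for Atg5. The labels do not say whether equal numbers are pairs in either genotype. RV minus LV was -0.32 in WT-PLN (95% interval -0.59 to -0.06, unadjusted p = 0.0219, limma adjusted p = 0.302) and -0.27 in R14del-PLN (interval -0.54 to -0.0014, unadjusted p = 0.049, limma adjusted p = 0.754), neither of which passed. Without R14del-PLN LV sample 3 the latter was -0.15 (unadjusted p = 0.165, limma adjusted p = 0.999). The exact permutation test of 3 against 3 gave p = 0.1 for each, the smallest two-sided p it can give. The genotypes overlapped in both ventricles, at -0.19 in LV and -0.14 in RV.

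Reads of Map1lc3b can be shared with copies. Processed pseudogenes that matched it at 95% identity or better along 80% or more of the shorter sequence were Gm6055 (99.7% identity, 0 to 13.2 TPM over the samples, mean 6.40 TPM), Gm6054, Gm12727 and Gm5612 (each under 1 TPM in every sample). Gm20388, a longer gene on the same strand that spans Map1lc3b, was listed at a mean of 5.72 TPM. Bnip3l has 1 such copy, Bnip3l-ps, at 0 to 0.114 TPM, and no copy of this kind was found for the other 8 genes. Annotated genes overlapping on the opposite strand were Zcchc14 with Map1lc3b (by 58 bases, mean 5.42 TPM), Mrnip with Sqstm1 (0.716 TPM), Cntd1 with Becn1 (0.122 TPM), and 1700101I11Rik with Gabarapl1, not analysed here. On the same strand, Gm44243 overlapped Gabarapl1 by 692 bases and Mir1929 overlapped Atg5 by 93 bases. Neither was among the genes listed, so their levels are not known.

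Gabarapl1, a GABARAP-like ATG8 gene, had the largest genotype difference among the 10 genes. It was at 45.0, 74.8 and 68.8 TPM in WT-PLN LV against 42.9, 39.4 and 53.3 TPM in R14del-PLN LV, and at 37.6, 59.6 and 52.0 TPM in WT-PLN RV against 37.7, 44.1 and 33.1 TPM in R14del-PLN RV. In both ventricles WT-PLN samples 2 and 3 were high and WT-PLN sample 1 lay within the R14del-PLN range, so the genotypes overlapped. The log2 difference was -0.45 in LV (SE 0.21, 95% interval -0.90 to 0.0058, adjusted p = 0.53) and -0.35 in RV (SE 0.21, adjusted p = 0.962). In linear terms the R14del-PLN mean was 0.719 times the WT-PLN mean in LV and 0.77 times in RV. Without both WT-PLN samples numbered 1, the differences were -0.67 in LV (adjusted p = 0.0832) and -0.54 in RV (adjusted p = 0.345). Leaving out the WT-PLN sample numbered 2 of the ventricle concerned gave smaller differences, -0.31 in LV and -0.21 in RV.

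The other ATG8 genes lay beside the members. Gabarap was at a mean of 125 TPM and Gabarapl2 at 51.8 TPM. Gabarapl2 was at 58.4, 60.9 and 65.5 TPM in WT-PLN LV, 47.1, 48.0 and 52.3 TPM in WT-PLN RV, 50.4, 50.5 and 63.5 TPM in R14del-PLN LV and 44.0, 38.7 and 42.3 TPM in R14del-PLN RV. Its ventricles did not overlap in either genotype, with RV minus LV at -0.32 (SE 0.12, adjusted p = 0.294) in WT-PLN and -0.38 (SE 0.12, adjusted p = 0.711) in R14del-PLN. Summed over the 5 ATG8 genes, LV held 677 to 739.9 TPM in WT-PLN and 605 to 682 TPM in R14del-PLN, and RV held 564 to 594 TPM and 489.8 to 591 TPM, below LV without overlap in either genotype. Per 1000000 TPM of genes that are not mitochondrially encoded, that sum was 1269 to 1322 in LV and 1125 to 1257 in RV of WT-PLN, and 1087 to 1250.2 in LV and 1002 to 1217 in RV of R14del-PLN, so the ventricles then overlapped in R14del-PLN.

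Within the family, the shares of the 5 genes were close between ventricles. Map1lc3a held a mean of 43.8% of the ATG8 sum in LV and 44.6% in RV of WT-PLN, and 47.3% and 47.7% in R14del-PLN. Gabarapl1 held 6.65, 10.9 and 9.30% in WT-PLN LV samples 1, 2 and 3 and 6.33, 10.6 and 9.01% in WT-PLN RV. In the 6 R14del-PLN samples its share was 6.35 to 8.996%, so that the LV sample 1 of WT-PLN lay inside that range and the RV sample 1 just under it.

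**Figure D2:**
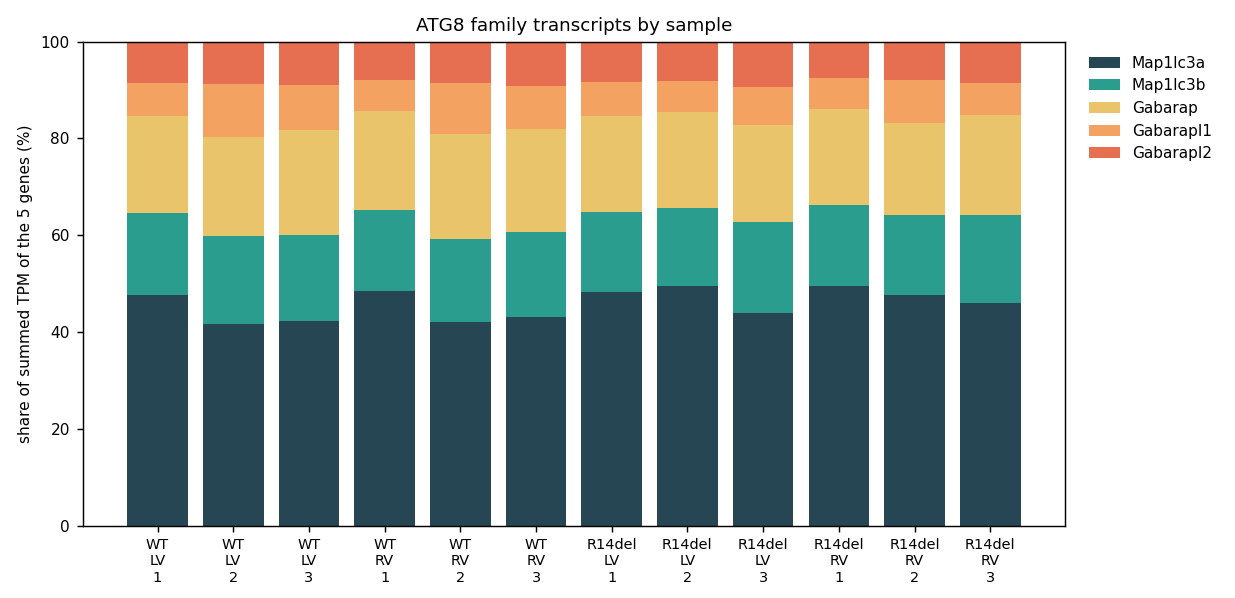
Share of each ATG8 gene in their summed TPM (vertical axis, %) in the 12 samples (horizontal axis, group and replicate number). Map1lc3a holds 41.6 to 49.6% in every sample, and Gabarapl1 6.33 to 10.9%, with the higher shares in samples 2 and 3 of WT-PLN.

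Sqstm1 encodes p62, the receptor that brings ubiquitin-tagged cargo to ATG8 proteins and is itself broken down with it. It was at 169, 242 and 264 TPM in WT-PLN LV against 160.3, 155 and 209.7 TPM in R14del-PLN LV, and at 139, 199 and 182 TPM in WT-PLN RV against 130.5, 180.5 and 129.7 TPM in R14del-PLN RV. As with Gabarapl1, WT-PLN samples 2 and 3 were the high ones in each ventricle and the genotypes overlapped. The log2 difference was -0.35 in LV (SE 0.20, adjusted p = 0.63) and -0.24 in RV (SE 0.20, adjusted p = 1). Leaving out both WT-PLN samples numbered 1 gave -0.54 in LV (adjusted p = 0.208) and -0.39 in RV (adjusted p = 0.76). The difference was smaller, at -0.22, without WT-PLN LV sample 3 in LV and, at -0.13, without WT-PLN RV sample 2 in RV. The ventricles differed by -0.37 (RV minus LV, WT-PLN) and -0.25 (R14del-PLN), with overlap in both.

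Sqstm1 and Gabarapl1 had the highest correlation among the 45 pairs of members, a Pearson r of 0.959 over the 12 samples, given as a description because the samples share groups and libraries. Bnip3l and Gabarapl1 came next at 0.85. Map1lc3a and Lamp2 were the least alike at 0.0592. In the 4 WT-PLN samples numbered 2 and 3, Gabarapl1 was at 52.0 to 74.8 TPM and Sqstm1 at 182 to 264 TPM. In the 2 WT-PLN samples numbered 1 and the 6 R14del-PLN samples they were at 33.1 to 53.3 TPM and 129.7 to 209.7 TPM. Both pairs of ranges overlapped, through R14del-PLN LV sample 3 at 53.3 TPM of Gabarapl1 and 209.7 TPM of Sqstm1. The early response sum did not overlap between the same sets of samples. It was 89.6 to 313 TPM against 18.9 to 35.9 TPM, with 35.1 TPM in R14del-PLN LV sample 3. The sample with the most Gabarapl1 (WT-PLN LV 2) was not the one with the highest early response sum (WT-PLN LV 3). The part of the early response sum in the result was not tested. The 2 samples numbered 1 are also those without Y-linked transcripts. Each of the 8 early response genes had a lower mean in R14del-PLN in both ventricles, and by limma 0 of the 8 were called. Their median log2 difference was -1.64 in LV and -1.44 in RV, and 7 of 8 in LV and 5 of 8 in RV had an unadjusted limma p under 0.05, against 9.60% and 6.22% of all genes. Globin and Alas2 transcripts of red cells summed to 1093 to 2142 TPM in R14del-PLN against 2087 to 2316 TPM in WT-PLN in LV, and to 956 to 1368 TPM against 1461 to 1736 TPM in RV, and their part was not tested either.

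**Figure D3:**
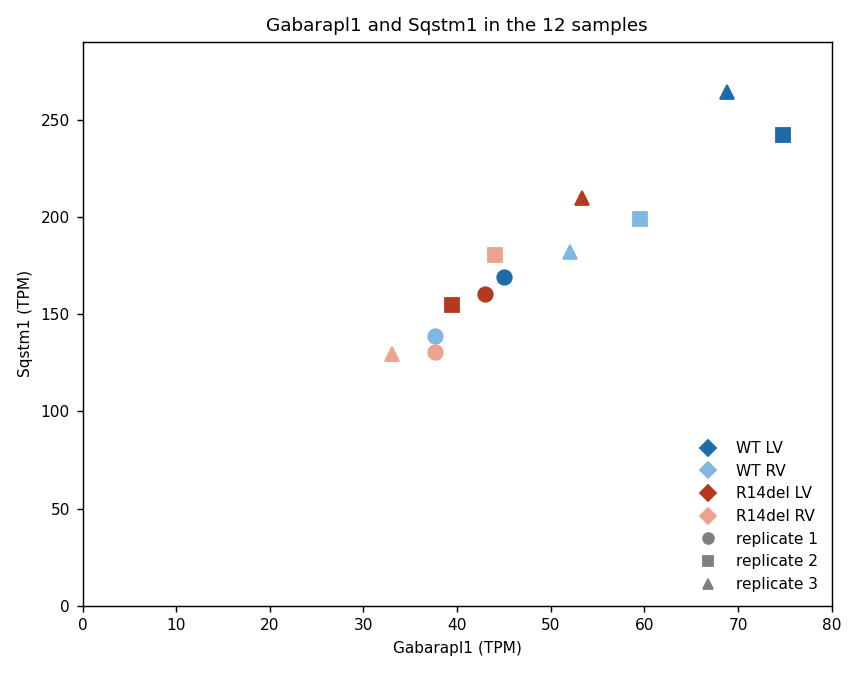
Sqstm1 (vertical axis, TPM) against Gabarapl1 (horizontal axis, TPM) in the 12 samples, both axes from 0, coloured by group with symbols for the replicate number. The 4 WT-PLN samples numbered 2 and 3 lie from 52.0 TPM of Gabarapl1 and 182 TPM of Sqstm1 upward, as does R14del-PLN LV sample 3 at 53.3 and 209.7 TPM, and the 2 WT-PLN samples numbered 1 lie among the other R14del-PLN samples.

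Bnip3l encodes NIX, a mitophagy receptor of the outer mitochondrial membrane. Its values were 49.3, 58.3 and 58.6 TPM in WT-PLN LV against 44.3, 48.1 and 50.4 TPM in R14del-PLN LV, which overlapped by 1 sample on each side. In RV they were 48.1, 52.7 and 57.4 TPM against 47.5, 43.9 and 43.6 TPM, which did not overlap, with the lowest WT-PLN value of 48.1 TPM close to the highest R14del-PLN value of 47.5 TPM. R14del-PLN was below WT-PLN by a log2 difference of -0.21 in LV (95% interval -0.46 to 0.04, adjusted p = 0.606) and -0.22 in RV (interval -0.47 to 0.03, adjusted p = 0.881). The exact permutation test in RV gave p = 0.1, the smallest possible. Leaving out 1 sample at a time, the RV difference lay between -0.28 and -0.16. RV minus LV was -0.07 for WT-PLN and -0.08 for R14del-PLN, both within the spread.

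Lamp2, a major protein of the lysosomal membrane, was at 44.4, 54.2 and 56.0 TPM in WT-PLN LV, 46.7, 46.9 and 57.7 TPM in WT-PLN RV, 39.3, 45.6 and 48.1 TPM in R14del-PLN LV and 52.4, 45.9 and 43.7 TPM in R14del-PLN RV. All groups overlapped. R14del-PLN minus WT-PLN was -0.21 in LV and -0.09 in RV (SE 0.14 for both, adjusted p = 0.698 and 1). Lamp2 was the 1 member with a positive RV minus LV difference, 0.09 in R14del-PLN, and it was -0.03 in WT-PLN.

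Tfeb, the transcription factor that is known to switch on lysosomal and autophagy genes, had the smallest spread of the 10 over all samples, with a coefficient of variation of 9.80%. It was at 10.4, 10.5 and 11.4 TPM in WT-PLN LV and 9.89, 11.1 and 11.4 TPM in R14del-PLN LV, a log2 difference of -0.00042 with a 95% interval of -0.25 to 0.25. In RV it was at 10.9, 8.94 and 10.4 TPM in WT-PLN and 8.38, 9.86 and 8.91 TPM in R14del-PLN, a difference of -0.14 (SE 0.12). LV and RV did not overlap in R14del-PLN, though the lowest LV value of 9.89 TPM was close to the highest RV value of 9.86 TPM. RV was below LV there by a log2 difference of -0.23 (SE 0.12, limma adjusted p = 0.808). The ventricles overlapped in WT-PLN, at -0.09.

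Set over all 10 genes, no member was called in any comparison. In LV between genotypes 0 of 10 were called, with 0.519% of all tested genes called, and 0 of 10 had an unadjusted limma p under 0.05, against 9.60% of all genes. All 10 members had a lower mean log2 level in R14del-PLN, as did 71.7% of all genes, lying between -0.45 and -0.00042 with a median of -0.19, where the median over all genes was -0.09. In RV 0 of 10 were called (0.271% of all genes) and 0 of 10 had an unadjusted p under 0.05 (6.22% of all genes). The median member difference there was -0.11 against -0.0034 over all genes, with 8 of 10 members and 50.9% of all genes lower in R14del-PLN. Genotypes were separate, with no overlap of their ranges, for 0 members in LV (11.0% of all genes) and for 1, Bnip3l, in RV (11.0% of all genes). A p above the threshold does not show equal levels: for Gabarapl1 in LV the interval reached to -0.90.

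Between the ventricles, 0 of 10 members were called in WT-PLN (0% of all genes) and 0 of 10 in R14del-PLN (0% of all genes) by limma. At an unadjusted p under 0.05 there were 2 members in WT-PLN, Map1lc3b and Becn1, against 14.5% of all genes, and 1 in R14del-PLN, Map1lc3b, against 6.57%. In WT-PLN 10 of 10 members had a lower mean in RV, as did 85.9% of all genes, and the members' median was -0.24 beside -0.17 over all genes. In R14del-PLN 9 of 10 were lower in RV, with a median of -0.22 beside -0.08 over all genes and 70.3% of all genes lower. Without R14del-PLN LV sample 3, the one with the lowest mitochondrial share, these medians were -0.11 for the members and 0.02 over all genes. The ranges of LV and RV did not overlap for 3 members in WT-PLN (Map1lc3b, Becn1 and Atg5), beside 26.1% of all genes. In R14del-PLN they did not overlap for 2 (Map1lc3b and Tfeb), beside 9.98% of all genes. Both R14del-PLN separations were narrow, at 99.8 against 99.3 TPM for Map1lc3b and 9.89 against 9.86 TPM for Tfeb.

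Markers of several cell types were mostly lower in RV, as were most genes, though not all went in 1 direction. Of all genes, 85.9% were lower in RV of WT-PLN and 70.3% in RV of R14del-PLN. All 4 endothelial markers (Pecam1, Cdh5, Kdr and Tie1) were lower in RV of WT-PLN, by a median of -0.46, and their sum was 80.4 to 103.7 TPM in LV and 59.9 to 73.8 TPM in RV. In R14del-PLN all 4 were lower by a median of -0.30, with sums of 80.9 to 108.9 TPM in LV and 67.3 to 94.7 TPM in RV. All 4 markers of smooth muscle and pericytes (Acta2, Myh11, Tagln and Rgs5) were lower in RV of WT-PLN, by a median of -0.76, with sums of 167.7 to 369.9 TPM in LV and 144 to 181.8 TPM in RV, and 2 of 4 in R14del-PLN, where the sums were 144.1 to 228.4 TPM and 147.1 to 196.3 TPM. Of 4 fibroblast markers (Col1a1, Col1a2, Pdgfra and Dcn) 3 were lower in RV of each genotype, with medians of -0.19 and -0.07 and sums of 210.2 to 450.8 TPM over the 12 samples. All 4 macrophage markers (Cd68, C1qa, Csf1r and Mrc1) were lower in RV of WT-PLN and 3 of 4 in R14del-PLN. All 5 red cell markers were lower in RV of each genotype, and 3 of 5 heart muscle markers were higher. The 4 atrial markers tested were all lower in RV of WT-PLN, and 3 of them were higher in RV of R14del-PLN. None of these markers was called, and their part in the ventricle differences of the members was not tested.

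Scaling moved these values. After scaling each sample to its upper quartile, the median over all genes for RV minus LV in WT-PLN went from -0.17 to -0.0072, and that of the members from -0.24 to -0.05. Map1lc3b was then at -0.13 and Becn1 at -0.21 in WT-PLN, both still lower in RV, while Bnip3l, Lamp2 and Tfeb turned to 0.12, 0.16 and 0.09. For the genotypes in LV the median over all genes went from -0.09 to 0.01, with Gabarapl1 then at -0.33 and Sqstm1 at -0.23, and Map1lc3a, Atg5, Ulk1 and Tfeb turned positive, at 0.04 to 0.11. In R14del-PLN the members' median for RV minus LV went from -0.22 to -0.13 by the upper quartile, -0.08 by quantiles and -0.07 with mitochondrially encoded genes removed, beside 0.0030, 0.0026 and 0.06 over all genes. With mitochondrially encoded genes removed, Map1lc3b was at -0.19 and Becn1 at -0.27 in RV against LV of WT-PLN.

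**Figure D4:**
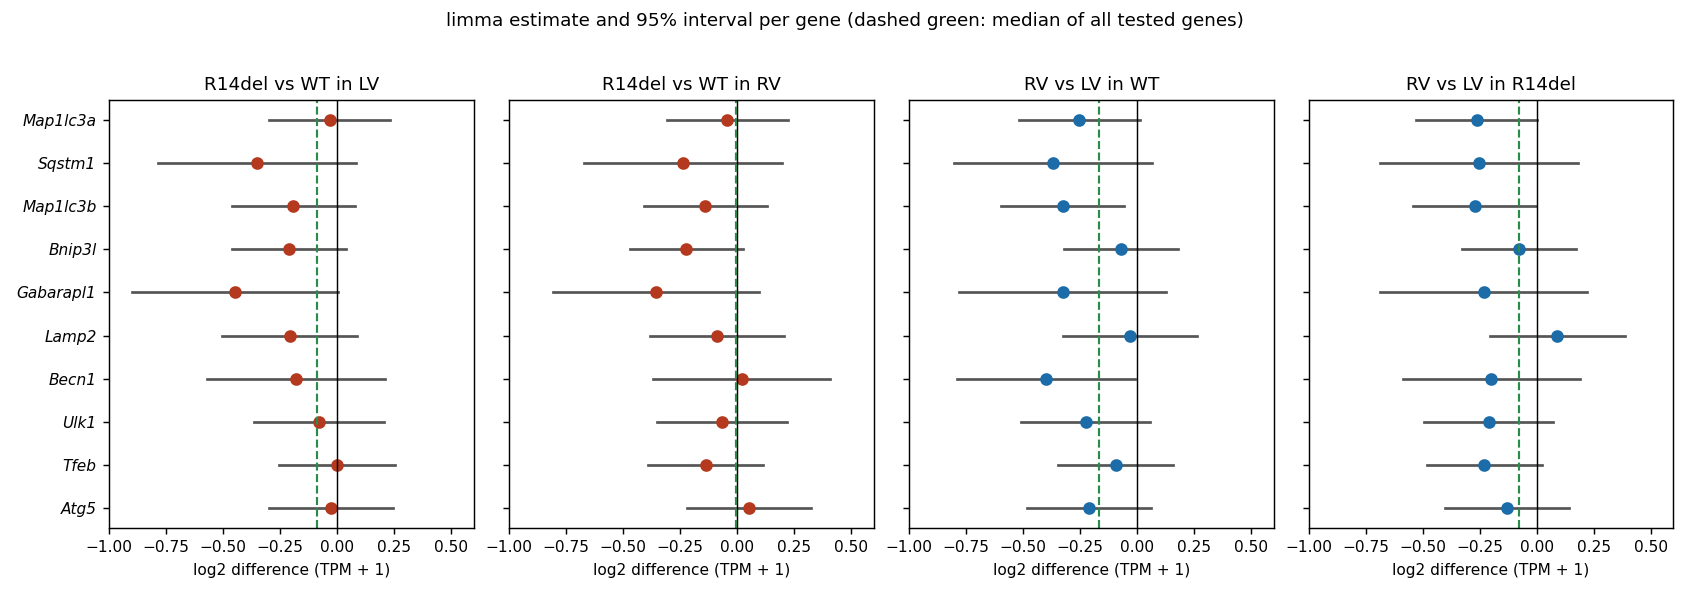
Difference of log2(TPM + 1) (horizontal axis) for each of the 10 genes (vertical axis) in the 4 comparisons, as the limma estimate and its 95% interval. The dashed line is the median over all 12526 tested genes, at -0.09, -0.0034, -0.17 and -0.08 from left to right, and the interval excludes 0 for Map1lc3b and Becn1 between ventricles in WT-PLN and for Map1lc3b in R14del-PLN.

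The interaction of genotype and ventricle asks whether the genotypes differed more in one ventricle than in the other. It was called for 0 of 10 members and 0% of all genes, and 0 of 10 members had an unadjusted limma p under 0.05. The estimates of the members lay between -0.14 for Tfeb and 0.20 for Becn1, with standard errors of 0.16 to 0.30 and an adjusted p of 1.00 for each.

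A wider list of 95 genes in 8 roles placed the members among their pathway, and of the 85 that are not members all were tested. By limma 0 of 85 were called in each of the 4 comparisons and 0 in the interaction. Of all genes, 0.519% were called between genotypes in LV and 0.271% in RV. Between ventricles and in the interaction 0% of all genes were called, so few calls could be looked for among 85 genes. At an unadjusted p under 0.05 there were 6 lower and 0 higher in R14del-PLN in LV, 3 lower and 1 higher in RV, 10 lower and 0 higher in RV than LV of WT-PLN, and 3 lower and 0 higher in RV than LV of R14del-PLN. These were 7.06, 4.71, 11.8 and 3.53% of the 85, below the 9.60, 6.22, 14.5 and 6.57% of all genes, where 983 genes were lower and 220 higher in R14del-PLN in LV. The medians of the 85 were -0.11, -0.04, -0.17 and -0.10 in that order, next to -0.09, -0.0034, -0.17 and -0.08 over all genes. By role, with the members included, the ATG8 family had the lowest median in all 4 comparisons. It was -0.19 in LV and -0.23 in RV between genotypes, and -0.32 in WT-PLN and -0.27 in R14del-PLN between ventricles. Of its 5 genes 3 are members, and the medians of -0.19 and -0.27 are the values of Map1lc3b, so they do not add to the members' results. The 25 genes of the lysosome and of fusion had medians of -0.15, -0.03, -0.24 and -0.14 in the same order.

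Foxo3 and Bnip3 had the smallest p of the wider list in both genotype comparisons. Foxo3, a forkhead factor known to act on atrophy and autophagy genes, was at 17.8, 20.4 and 22.4 TPM in WT-PLN LV against 12.2, 12.3 and 15.5 TPM in R14del-PLN LV, and at 21.0, 19.9 and 26.6 TPM in WT-PLN RV against 13.5, 15.2 and 12.9 TPM in R14del-PLN RV. All R14del-PLN values lay below all WT-PLN values, WT-PLN samples 1 included. The log2 difference was -0.57 in LV (SE 0.15, limma adjusted p = 0.142) and -0.65 in RV (SE 0.15, limma adjusted p = 0.103), short of the threshold. The RV difference passed under 3 other scalings, which are given with the dependence on processing.

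Bnip3, a mitophagy receptor related to Bnip3l, was at 84.2, 143 and 104 TPM in WT-PLN LV against 61.1, 60.6 and 78.1 TPM in R14del-PLN LV, without overlap. In RV it was at 64.6, 112 and 77.3 TPM against 49.5, 67.5 and 52.0 TPM, with overlap. The differences were -0.70 in LV (SE 0.22, adjusted p = 0.272) and -0.55 in RV (SE 0.22, adjusted p = 0.675). Sample 2 of WT-PLN was the highest in each ventricle, as it was for Gabarapl1.

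Between ventricles, the smallest p values of the wider list were those of Atg101 and Gabarapl2 in WT-PLN, and of Gabarapl2 and Ctsd in R14del-PLN. Atg101, a subunit of the ULK1 complex, was at 11.7, 11.1 and 13.2 TPM in LV and 7.67, 8.86 and 8.99 TPM in RV of WT-PLN, a difference of -0.45 (SE 0.14, limma adjusted p = 0.246). Ctsd, the lysosomal protease cathepsin D, was at 438, 439 and 621 TPM in LV and 369, 419 and 360.0 TPM in RV of R14del-PLN, a difference of -0.37 (SE 0.15, limma adjusted p = 0.738). In both cases the ventricles did not overlap.

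**Figure D5:**
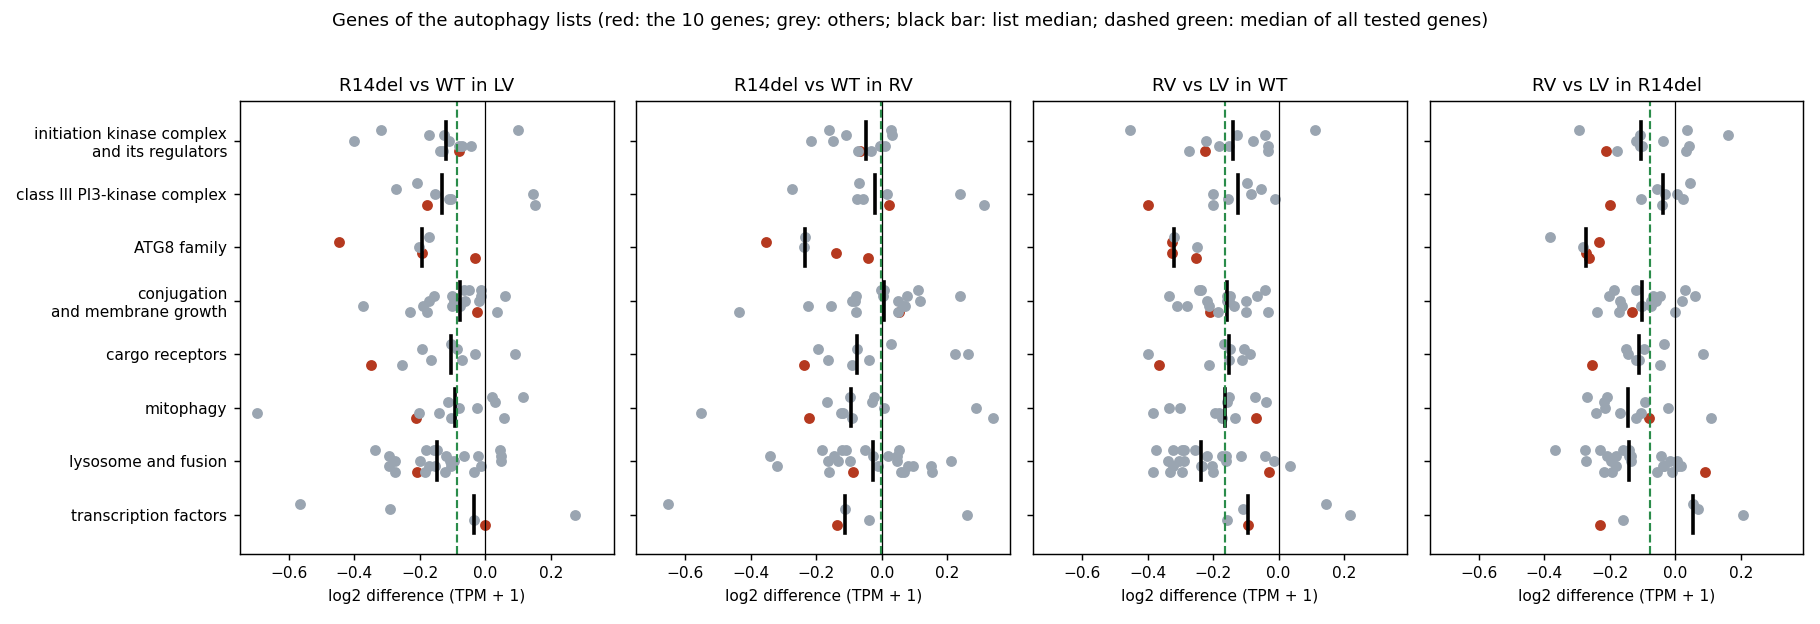
Difference of log2(TPM + 1) (horizontal axis) for the 95 genes of the 8 role lists (vertical axis) in the 4 comparisons. Red points are the 10 genes, grey points the other 85, black bars list medians, and the dashed line the median over all tested genes. The ATG8 family median is at -0.19, -0.23, -0.32 and -0.27 from left to right.

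For each member named here, the tested gene most like it over the 12 samples was sought among 6849 other genes whose mean reached 5 TPM, by Pearson r of log2(TPM + 1). The highest values were those of Map1lc3b with Cops6 (r = 0.987), Atg5 with Parp2 (0.985), Gabarapl1 with Stip1 (0.98), Ulk1 with Scap (0.979), Bnip3l with Gfpt2 (0.976), Becn1 with Kars (0.975) and Sqstm1 with Oser1 (0.974). Lower ones were Map1lc3a with Ndufa3 (0.936) and Tfeb with Polr2d (0.857). The points share libraries and the mitochondrial share of TPM, and no test was made of these values.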

How the data were processed

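Polyadenylated RNA of 12 ventricle samples was sequenced from stranded libraries, and per the labels total RNA was used. The authors deposited TPM per gene, which sum to 1000000 in each sample and hold no depth. CLC Genomics Workbench and GRCm38 are named in the methods of the study for read mapping. The counting behind the deposited TPM is not given in the sources used here. Without depth no counting error or detection limit could be given.

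TPM were transformed to log2(TPM + 1). Genes whose mean over all 12 samples reached 0.5 TPM were kept (12526 of 33641 listed), and limma 3.58.1 in R 4.3.3 was fitted to 4 group means, with the prior spread following the level (degrees of freedom: 8 residual, 5.15 prior). P-values were adjusted by Benjamini-Hochberg over all tested genes, and limma intervals are 95% intervals. Exact permutation tests are two-sided. The model was tested on simulated data. The labels do not say whether samples come from separate mice, so p-values measure the spread between these samples.

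The 10 genes and the role and marker lists were chosen with earlier results of these data known. Named besides the members were, for each of the 4 comparisons, the 2 genes of the wider list with the smallest p, the gene most like each member, Pln, Atp2a2 and 4 Y-linked genes. Copies were sought with BLAST 2.17.0 in GENCODE transcripts.

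Whether equal numbers pair LV and RV samples was checked by correlating deviations from group means over all tested genes. For numbers 1, 2 and 3 the correlation was 0.657, 0.321 and 0.457 in WT-PLN, and 0.389, 0.23 and 0.0542 in R14del-PLN. The criterion of more than 0.1 in each pair was met in WT-PLN and not in R14del-PLN or between the genotypes. Samples of unequal number gave -0.457 to 0.000824 in WT-PLN and -0.396 to 0.160 in R14del-PLN. Deviations sum to 0 within a group, so positive values at equal numbers go with negative ones at unequal numbers. Missing the criterion does not show that the R14del-PLN samples are unpaired, because 1 low pair is enough to miss it. Meeting it does not show that the WT-PLN samples are pairs from the same mice. The gene most like Lamp2 is not reported here.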

Additional observations from a re-analysis of the deposited data

How the results depend on the processing

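Alternatives were another pseudocount (0.1, 0.5), another filter (mean of 5 TPM, none), no intensity trend, no fold threshold, scaling by quantiles or by the upper quartile, leaving out genes of mitochondrial DNA, only the 6 samples compared, blocks, and leaving out each sample or both WT-PLN samples numbered 1. The number of members called was 0 under each of them in each comparison. For the wider list 1 gene, Foxo3, was called in RV between genotypes under quantile normalization, upper quartile scaling and removal of mitochondrial genes, against 0 otherwise. Of 740 alternative values for the 40 member differences between groups, 694 kept their direction and 46 reversed, all of them from differences of at most 0.13 in size, and 0 passed an adjusted p of 0.05. For the interaction 33 of 240 values changed sign.

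Under quantile normalization the reversed values were, in LV between genotypes, 0.034 for Ulk1, 0.0877 for Map1lc3a, 0.0825 for Atg5 and 0.107 for Tfeb, in RV between genotypes 0.0226 for Map1lc3a, between ventricles of WT-PLN 0.126 for Bnip3l, 0.165 for Lamp2 and 0.0899 for Tfeb, and between ventricles of R14del-PLN 0.0501 for Bnip3l. Upper quartile scaling gave 0.0355 for Ulk1, 0.0883 for Map1lc3a, 0.0771 for Atg5 and 0.11 for Tfeb in LV, 0.121 for Bnip3l, 0.161 for Lamp2 and 0.0853 for Tfeb between ventricles of WT-PLN, and 0.018 for Bnip3l between those of R14del-PLN. Removing mitochondrial genes gave 0.016 for Tfeb (LV), 0.00057 for Map1lc3a (RV), 0.0657 for Bnip3l, 0.106 for Lamp2 and 0.0346 for Tfeb (WT-PLN ventricles), and 0.0119 for Atg5 and 0.0825 for Bnip3l (R14del-PLN ventricles). Without both WT-PLN samples numbered 1, Map1lc3a was at 0.00257 in LV and 0.0378 in RV and Becn1 at -0.0221 in RV. The cause of single reversals was not tested.

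Leaving out 1 sample at a time, the LV genotype difference ranged from -0.138 to 0.0374 for Atg5, -0.0813 to 0.00257 for Map1lc3a, -0.0367 to 0.0551 for Tfeb and -0.174 to 0.00251 for Ulk1. In RV it ranged from -0.132 to 0.174 for Becn1, -0.162 to 0.0118 for Lamp2, -0.157 to 0.0378 for Map1lc3a and -0.15 to 0.00962 for Ulk1. RV minus LV in WT-PLN ranged from -0.132 to 0.0321 for Lamp2.

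The count over all genes, which sets the background, was less stable: in LV between genotypes 65 genes, from 19 without R14del-PLN LV sample 1 to 230 without both WT-PLN samples numbered 1, and in RV 34 genes, from 14 to 88. With the number as a fixed replicate block it was 119 in LV and 62 in RV, with 0 members. A fixed replicate block for mouse, which takes equal numbers as pairs, was added after seeing the data. With it, RV against LV called 12 genes in WT-PLN and 0 in R14del-PLN, with 0 members. Map1lc3b then had an adjusted p of 0.313 in WT-PLN. Taking equal numbers as pairs changed no member's call. TPM hold no depth, so what depth limits could not be given.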
